A study of Mus musculus with 32 samples.

Results

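The 36 genes described here encode core proteins of the spliceosome and their close relatives among the Sm and LSm families. They are the protein-coding genes of the count table whose symbols begin with Snrp, Sf3a or Sf3b, Prpf or Lsm followed by a number where the family uses one, and they are 36 of 15444 protein-coding genes. By class they comprise 5 proteins of the Sm ring, 4 of the U1 particle, 9 of the U2 particle, 4 of the U4/U6.U5 tri-snRNP, 4 that act at other steps of splicing, 6 of the U6 LSm ring, 1 of the U7 particle and 3 cytoplasmic LSm proteins. A further 11 genes of these classes, Snrpe, Snrpg, Snrpn, Snrpa, Sf3b4, Sf3b5, Prpf4, Prpf38a, Lsm5, Lsm10 and Lsm14a, were not analysed here.

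Introns are removed by small nuclear ribonucleoproteins (snRNPs), each an snRNA bound by a ring of Sm proteins, or of LSm proteins for U6, and by proteins of its own. U1 recognises the start of the intron and U2 its branch site, after which the tri-snRNP joins and the complex is rearranged for catalysis. U2AF1, the factor altered in this study, binds the end of the intron and helps to bring in U2, and it is among the splicing genes recurrently mutated in myeloid neoplasms.

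RNA sequencing was made of sorted hematopoietic progenitors (Lin- cKit+ Sca1-) in 32 libraries of 9 groups, 15 of mouse fetal liver (E14.5) and 17 of the marrow of adults. The study concerns how much U2af1 such cells need. Fetal groups in batch A were U2af1(flox/flox) without Cre (flox control, n = 3), Vav1-Cre/U2af1(wt/flox) (heterozygous deletion, n = 3) and Vav1-Cre/U2af1(flox/flox) (homozygous deletion, n = 3). Vav1-Cre/U2af1(wt/S34F), which carries a substitution in the U2AF1 protein (n = 4), was in batch B, and 1 library of Vav1-Cre alone lay in each batch. The 3 adult dose groups combined Mx1-Cre, rTA and the transgene tgU2AF1(WT) with U2af1(flox/S34F), so that all of them carried the S34F allele. They received polyinosinic-polycytidylic acid (pIpC), which switches on Mx1-Cre and so deletes the floxed allele, and chow with doxycycline, which induces the wild-type transgene, in 4 libraries at 1250 ppm, 6 at 2500 ppm and 4 at 10000 ppm. The 3 libraries of the adult control had the same Mx1-Cre, rTA and tgU2AF1(WT) alleles with U2af1(wt/wt) and were untreated, so genotype, pIpC and doxycycline differ together between it and each dose group. Vav1-Cre acts in blood cells and their precursors, Mx1-Cre is not limited to blood, and cells that escaped deletion were not measured. The labels do not say whether replicates are separate animals, and p-values therefore measure the spread between these libraries, which may be technical. Counts of the Y-linked gene Gm29650 were 29, 33 and 0 in the flox control and 0, 0 and 19 in the heterozygous deletion. They were 19, 0, 0 and 0 with S34F and 36, 34 and 0 in the untreated adults. Within each of these groups the libraries thus did not all come from the same animal, and sex was mixed.

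Library totals ran from 26588099 to 71251200 counts, and the 36 genes took between 0.5506% and 0.8722% of them. No value of U2af1 is given, as that gene was not analysed here, and genotypes are as labelled. Progenitor markers were high in every library, with Kit at 231 to 789 and Mpo at 7300 to 34200 CPM (counts scaled to the library total, after scaling of library sizes by TMM). All 36 genes passed the filter on low counts in every tested comparison. These are bulk libraries, in which fewer cells of a type and less RNA per cell cannot be told apart. The use of strand in counting is not given in the sources used here, so reads of overlapping genes on the other strand could be counted for Snrpd3, Snrpf, Prpf39, Prpf40b, Sf3a2, Sf3b3, Prpf31, Prpf6 and Prpf4b among others, and the treatment of reads shared with processed copies of the small genes is likewise not given.

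Levels per gene length differed between the members of each class with more than 1. On the scale of CPM per kilobase of exon, averaged over the 9 groups, Snrpf was the highest of all members at 250, and Prpf40b the lowest at 3.09. Within the Sm ring Snrpd3 was lowest at 48.8 CPM per kilobase. Among U2 proteins Sf3b2, a subunit of the SF3b complex that clamps the branch site, had 91.1 and Snrpb2, the U2B″ protein, 26.4 CPM per kilobase. In the tri-snRNP Prpf8, the scaffold around the catalytic centre, had 168 and Prpf3, a U4/U6 protein, 15.9 CPM per kilobase. Prpf19, a ubiquitin ligase of the active spliceosome, had 49 CPM per kilobase, against 12.6 for Prpf18, which acts at the final ligation. In the U6 ring Lsm4 had 115 and Lsm8, the subunit that distinguishes the nuclear ring, 15 CPM per kilobase. The U7 protein Lsm11 had 5.5, Lsm12 65.8 and Lsm1, the subunit of the cytoplasmic ring that promotes mRNA decay, 8.43 CPM per kilobase.

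**Figure D1:**
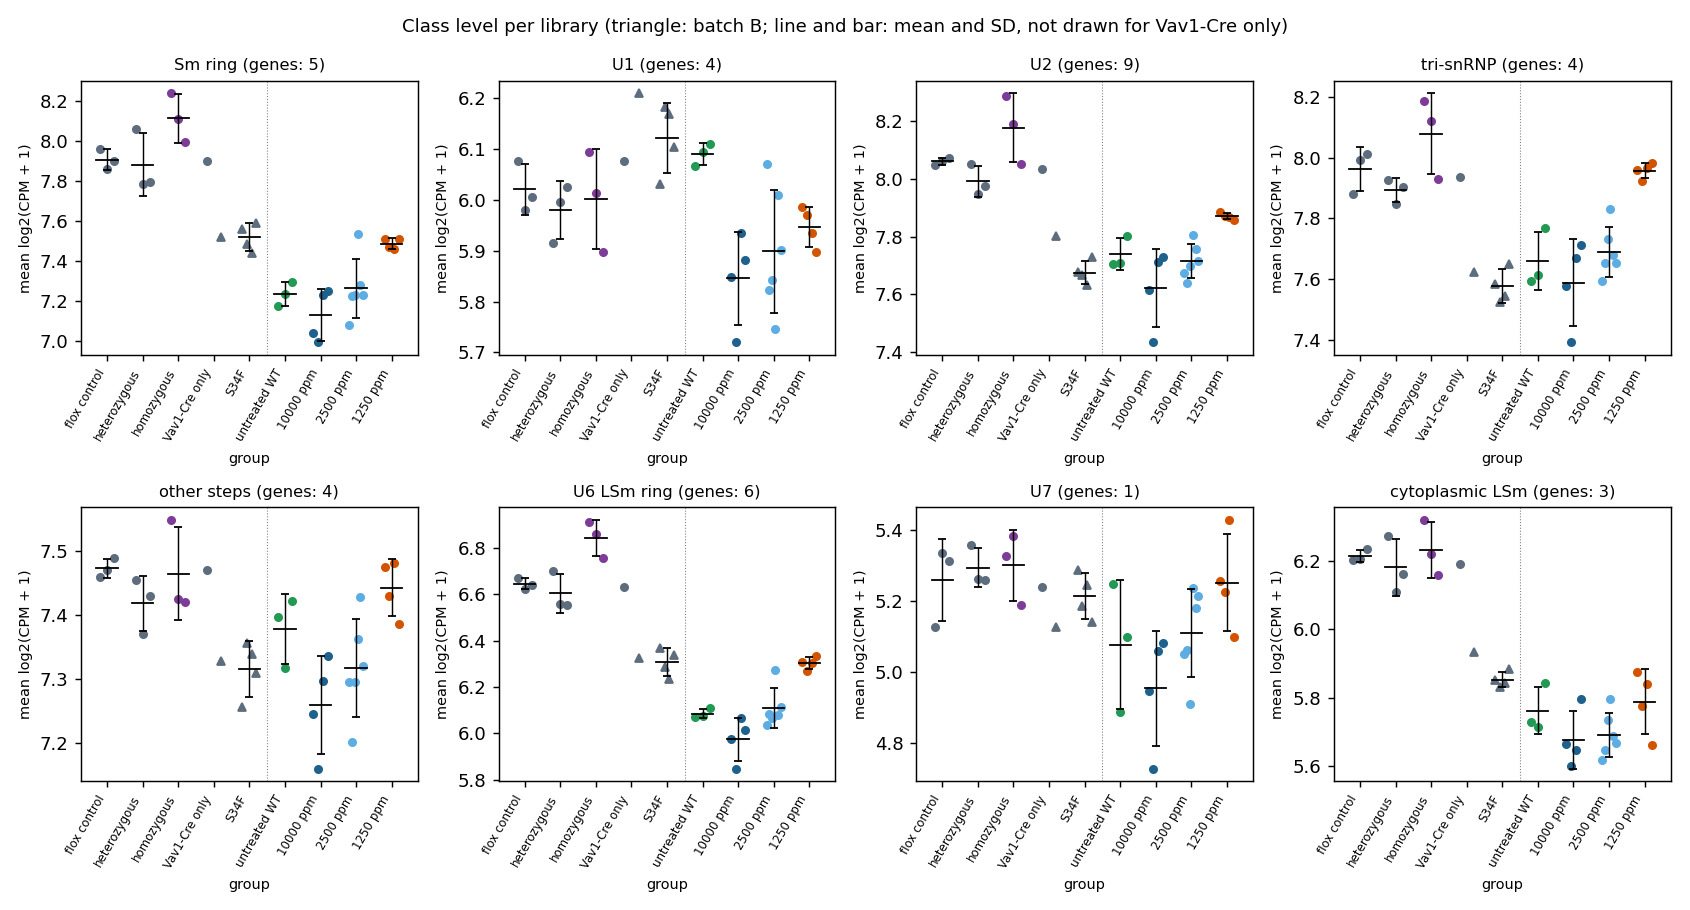
Each panel plots 1 class, with the mean over its genes of log2(CPM + 1) on the vertical axis and the 9 groups on the horizontal axis. Points are libraries, triangles mark batch B, and lines with bars give mean and SD, which are not drawn for the Vav1-Cre libraries. In the Sm and U6 LSm rings and in U2, among other classes, the mean is highest in the homozygous deletion and lowest at 10000 ppm.

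The class levels put the Sm ring highest in the homozygous deletion and lowest at 10000 ppm. Its mean log2(CPM + 1) was 7.91 ± 0.052 (SD, n = 3) in the flox control, 7.88 ± 0.16 (SD, n = 3) in the heterozygous and 8.12 ± 0.12 (SD, n = 3) in the homozygous deletion. The highest heterozygous library, at 8.06, lay above the lowest homozygous one, at 7.99. In batch B the mean of the ring was 7.52 ± 0.07 (SD, n = 4) with S34F. Adult libraries had 7.23 ± 0.061 (SD, n = 3) in the untreated wild type, 7.13 ± 0.13 (SD, n = 4) at 10000 ppm, 7.26 ± 0.15 (SD, n = 6) at 2500 ppm and 7.49 ± 0.027 (SD, n = 4) at 1250 ppm. The 1250 ppm libraries, at 7.46 to 7.51, lay above the untreated ones, at 7.17 to 7.3, while the 2500 ppm libraries spanned 7.08 to 7.54. U1 proteins had another order, with 6.09 ± 0.022 (SD, n = 3) in the untreated wild type, above the 5.95 ± 0.039 (SD, n = 4) at 1250 ppm, and 6.02 ± 0.05 (SD, n = 3) and 6 ± 0.098 (SD, n = 3) in the flox control and the homozygous deletion. The U6 ring followed the Sm ring, from 6.64 ± 0.024 (SD, n = 3) to 6.84 ± 0.078 (SD, n = 3) between the flox control and the homozygous deletion and from 6.3 ± 0.027 (SD, n = 4) at 1250 ppm to 5.97 ± 0.093 (SD, n = 4) at 10000 ppm. U2 proteins too were highest in the homozygous deletion, at 8.18 ± 0.12 (SD, n = 3), and lowest at 10000 ppm, at 7.62 ± 0.13 (SD, n = 4).

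Promoters are shown for 5 of the members named below for their change in the homozygous deletion, Prpf39, Sf3b1, Snrpb2 and Lsm6, which were higher, and Lsm14b, which was lower, so that their letters can be read beside the values. They are the 250 bases before the RefSeq start, 5′ to 3′ on the gene's strand, on GRCm38.p6. Prpf39 is at chr12:65036084-65036333 on the plus strand, Sf3b1 at chr1:55027479-55027728 on the minus strand, Snrpb2 at chr2:143062819-143063068 on the plus strand, Lsm6 at chr8:78821153-78821402 on the minus strand, and Lsm14b at chr2:180024737-180024986 on the plus strand. Capitals mark every match on either strand to CCAAT, to the GC box GGGCGG, to the E-box CACGTG, to the ETS motif CCGGAAG, to the TATA box TATAAA or to the CRE TGACGTCA.
Prpf39: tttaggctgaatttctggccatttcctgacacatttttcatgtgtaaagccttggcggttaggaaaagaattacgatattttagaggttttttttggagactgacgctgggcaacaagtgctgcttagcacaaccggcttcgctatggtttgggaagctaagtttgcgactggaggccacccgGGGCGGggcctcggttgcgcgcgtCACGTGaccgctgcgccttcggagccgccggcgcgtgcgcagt
Sf3b1: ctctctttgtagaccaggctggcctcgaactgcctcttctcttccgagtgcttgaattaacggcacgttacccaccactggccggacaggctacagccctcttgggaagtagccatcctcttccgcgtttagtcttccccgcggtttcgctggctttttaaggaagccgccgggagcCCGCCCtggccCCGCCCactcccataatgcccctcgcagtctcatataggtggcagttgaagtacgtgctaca
Snrpb2: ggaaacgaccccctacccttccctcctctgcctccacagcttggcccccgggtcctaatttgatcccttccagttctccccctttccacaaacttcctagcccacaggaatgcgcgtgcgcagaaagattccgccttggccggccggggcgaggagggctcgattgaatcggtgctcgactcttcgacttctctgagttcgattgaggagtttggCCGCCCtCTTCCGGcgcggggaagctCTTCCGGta
Lsm6: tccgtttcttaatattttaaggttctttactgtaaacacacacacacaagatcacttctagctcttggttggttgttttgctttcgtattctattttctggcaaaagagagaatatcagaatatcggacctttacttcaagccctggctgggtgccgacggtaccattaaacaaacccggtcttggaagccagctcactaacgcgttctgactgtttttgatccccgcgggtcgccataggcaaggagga
Lsm14b: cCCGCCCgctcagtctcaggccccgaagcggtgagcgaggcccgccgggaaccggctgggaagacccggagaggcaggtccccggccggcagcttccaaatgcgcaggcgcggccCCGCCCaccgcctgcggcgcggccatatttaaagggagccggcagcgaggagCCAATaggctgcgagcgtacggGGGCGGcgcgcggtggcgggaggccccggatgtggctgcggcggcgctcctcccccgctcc

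The ETS motif was the one whose share among members differed most from its share elsewhere. Of the 36 genes 29 had a RefSeq promoter entry, and 11 of the 29 (37.9%) held CCGGAAG or its complement within 250 bases before a start. The share was 15.4% of 8629 genes with a mean of at least 10 counts and 7.8% of all 27025 genes with an entry. The GC box was in 65.5% of the member genes against 63.1% of genes with that many counts, the CCAAT box in 37.9% against 39.9% and the E-box in 10.3% against 9.9%. Most of the ETS matches lay close to the start, between 7 and 90 bases before it, and that of Sf3b3 lay farther off. The matches are given with 10 bases on either side, on the strand where the motif reads CCGGAAG, with the motif in capitals, and where a gene had a pair of matches both are given.
Sf3a1: gagggcgggaCCGGAAGtgctcccgcg
Sf3a2: gcctttgctcCCGGAAGggatcgcttc
Sf3a3: tccgcgtgtcCCGGAAGtgtcttgggg
Sf3b2: gattacgcaaCCGGAAGtttctggaag
Sf3b3: cctcgcaagcCCGGAAGcgcccaccgg
Sf3b6: ggattgcggaCCGGAAGgggcggggcg
Sf3b6: ggtccgcaatCCGGAAGcgttctggag
Snrpb2: cttccccgcgCCGGAAGagggcggcca
Snrpb2: gaaactaataCCGGAAGagcttccccg
Snrpc: agggcagaggCCGGAAGcggaagtcct
Prpf3: cgtagggcaaCCGGAAGgtttccggtt
Prpf19: ggagcgctcgCCGGAAGaagccgagcc
Prpf4b: ccccctagccCCGGAAGttacgttccg
These sites are chr11:4160337-4160363 for Sf3a1, chr10:80798649-80798675 for Sf3a2, chr4:124714761-124714787 for Sf3a3, chr19:5295452-5295478 for Sf3b2, chr8:110847016-110847042 for Sf3b3 and chr12:4817513-4817539 and chr12:4817528-4817554 for Sf3b6. They are chr2:143063031-143063057 and chr2:143063050-143063076 for Snrpb2, chr17:27840038-27840064 for Snrpc, chr3:95855794-95855820 for Prpf3, chr19:10895153-10895179 for Prpf19 and chr13:34875448-34875474 for Prpf4b. The motif lies on the plus strand for Sf3a1, Sf3a2, Sf3b3, the latter Sf3b6 site, Snrpc, Prpf19 and Prpf4b, and on the minus strand for the rest. Of these 11 genes 7 were called lower at 10000 than at 1250 ppm, beside 22 of all 36 members and 10.6% of all genes. In the homozygous deletion 3 of them were called higher (Prpf3, Snrpb2 and Snrpc) and 1 lower (Prpf4b), beside 18.5% and 22.4% of all genes. A match is a description of letters and does not show binding of a factor.

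In fetal progenitors labelled as homozygous for the U2af1 deletion, most proteins of the U6 ring and several of the U1 and U2 particles had more mRNA than in the flox control, while Prpf40b had less than in any control library. Of the 36 members 13 were higher and 3 lower in the homozygous deletion (44.4%) in the quasi-likelihood test of edgeR at a Benjamini-Hochberg adjusted p under 0.05, beside 41.0% of all genes tested, 18.5% higher and 22.4% lower. The share called was thus near that of all genes, and the split differed. The median log2 fold change was 0.12 over the members and -0.02 over all genes, and 25 of 36 were positive. By class, higher calls were 4 of 6 in the U6 ring (Lsm3, Lsm4, Lsm6 and Lsm8), 3 of 9 in U2 (Sf3b1, Snrpa1 and Snrpb2), 2 of 4 in U1 (Prpf39 and Snrpc), and 1 each in the Sm ring (Snrpb), the tri-snRNP (Prpf3), the other steps (Prpf18) and the cytoplasmic proteins (Lsm12). The 3 lower members were Prpf40b, Prpf4b and Lsm14b.

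**Figure D2:**
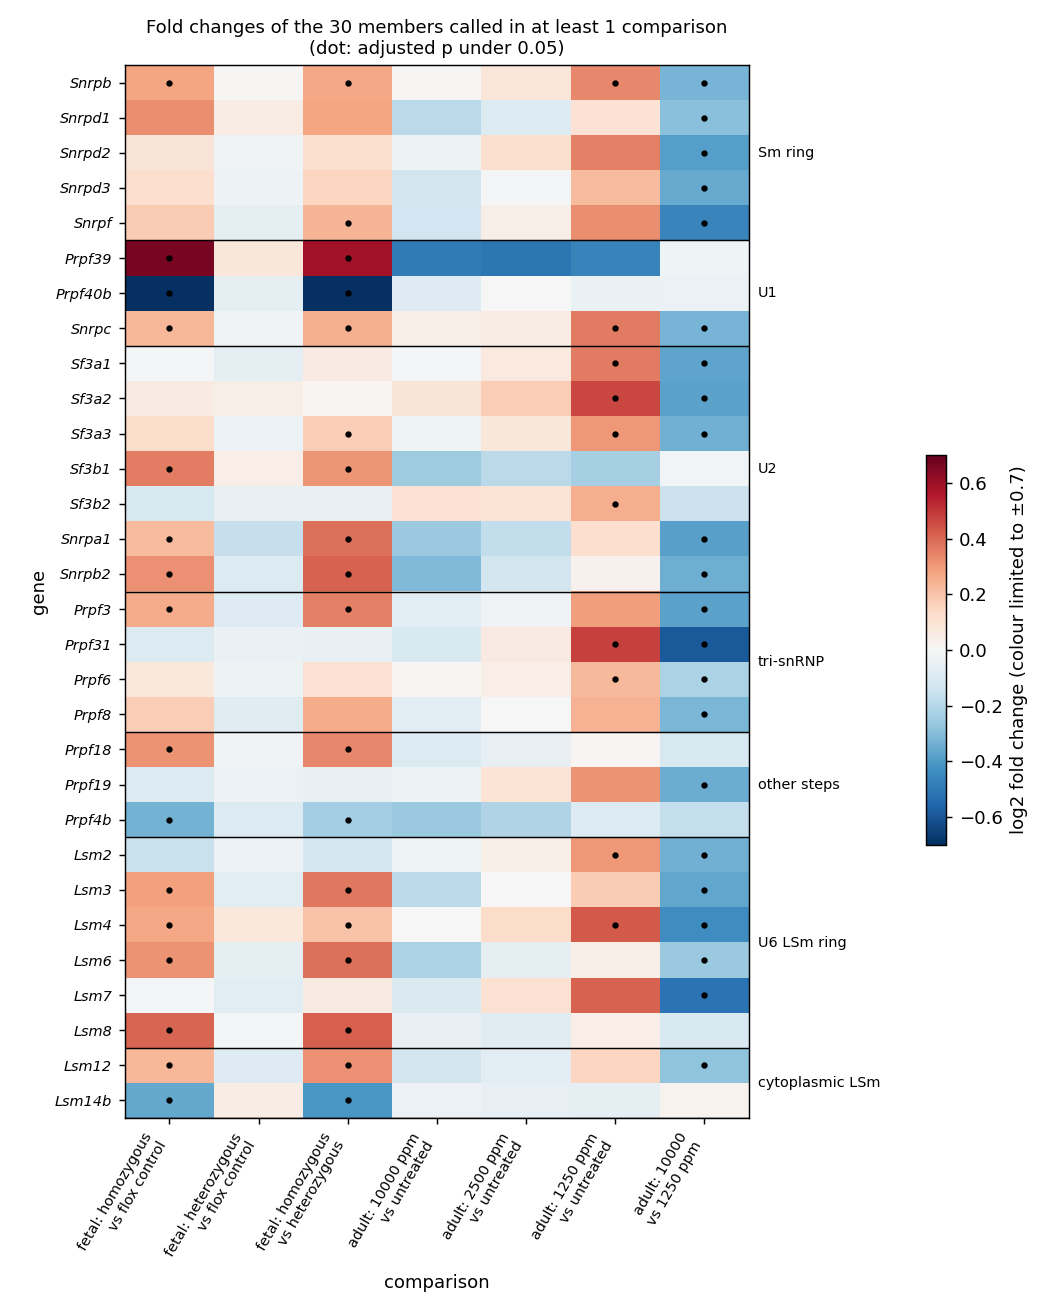
The map gives the log2 fold change of each member called in at least 1 of the comparisons shown (vertical axis, grouped by class) in 7 comparisons (horizontal axis), with colour limited to ±0.7 and a dot where the adjusted p was under 0.05. The column of 10000 against 1250 ppm holds 22 dots, all lower, and the heterozygous column holds none.

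Among U1 proteins, Prpf39 and Prpf40b moved in opposite directions. Prpf39, an accessory factor of U1, had 43.2, 37.8 and 41.7 CPM in the 3 flox control libraries and 74.8, 57.5 and 64.4 CPM in the homozygous deletion. The groups did not overlap, and Vav1-Cre alone in the same batch had 45.4 CPM. In batch B, however, Vav1-Cre alone had 72.6 CPM, within the range of the deleted libraries, and S34F 51.8 to 71.2 CPM. Between the homozygous deletion and the flox control the log2 fold change was 0.66 ± 0.10 (SE), with an adjusted p of 0.000672 by the quasi-likelihood test of edgeR (Benjamini-Hochberg adjusted). Prpf40b, related to the yeast U1 protein Prp40, had 18.1, 15.9 and 15.5 CPM in the flox control and 8.95, 8.67 and 6.81 CPM in the homozygous deletion. All 3 deleted libraries lay below every other fetal library, Vav1-Cre alone in batch A being at 18.6 CPM. The log2 fold change was -1.03 ± 0.12 (SE), or 0.488-fold, with an adjusted p of 0.000148 in the same edgeR test.

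In the U2 particle, Sf3b1, whose protein holds the branch-site adenosine, had 551, 529 and 525 CPM in the flox control and 743, 742 and 597 CPM in the homozygous deletion. The deleted libraries were all higher, the log2 fold change being 0.36 ± 0.066 (SE) with an adjusted p of 0.00174 by the quasi-likelihood test of edgeR (Benjamini-Hochberg adjusted). Snrpb2, which binds U2 snRNA and has a pair of ETS matches in its promoter, had 86.8, 78.2 and 81.9 CPM in the flox control against 113, 101 and 97.9 CPM, again without overlap. Its log2 fold change was 0.32 ± 0.063 (SE; edgeR adjusted p 0.00247). Sf3b2, the U2 member with the highest level per length, had 726, 727 and 741 CPM in the flox control and 707, 694 and 657 CPM in the homozygous deletion, and did not pass the test.

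The U6 ring binds the end of U6 snRNA, and 4 of its 6 members rose together. Lsm8 had 67.7, 64.7 and 63.8 CPM in the flox control and 89.4, 81.6 and 92.1 CPM in the homozygous deletion, a log2 fold change of 0.41 ± 0.069 (SE; edgeR adjusted p 0.000992). Lsm6 had 129, 118 and 121 CPM against 164, 155 and 144 CPM, a log2 fold change of 0.32 ± 0.059 (SE; edgeR adjusted p 0.00178). Neither gene's groups overlapped. For Lsm4 the values were 135, 131 and 134 CPM against 160, 174 and 155 CPM, also apart. Lsm2 and Lsm7, the other members of the ring, did not pass, with Lsm2 at 128, 139 and 141 CPM against 132, 127 and 112 CPM. Lsm11, of the U7 particle that trims histone mRNA, had 33.9, 39.4 and 38.8 CPM against 39.2, 40.8 and 35.5 CPM, which overlap.

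Of the tri-snRNP and later factors, Prpf3 and Prpf18 were higher and Prpf4b lower. Prpf3 had 96.7, 100 and 103 CPM in the flox control and 138, 114 and 112 CPM in the homozygous deletion, with no overlap. Prpf8 had 1180, 1460 and 1440 CPM against 1710, 1650 and 1310 CPM, which overlap and did not pass. Prpf18 had 63.3, 59.7 and 61.5 CPM against 75.4, 77.4 and 78.8 CPM, a difference larger than the spread in either group. Prpf19 had 413, 445 and 441 CPM against 447, 432 and 353 CPM, with the homozygous replicate 4 below all others. Prpf4b, a kinase of the spliceosome, had 188, 192 and 202 CPM against 163, 143 and 161 CPM. It fell by 0.33 on the log2 scale (SE 0.079, edgeR adjusted p 0.007). In the Sm ring Snrpb had 370, 366 and 375 CPM against 476, 498 and 392 CPM, and Snrpf 313, 285 and 299 CPM against 370, 334 and 322 CPM. Both pairs of groups were apart, but of the Sm ring Snrpb alone passed the test. Snrpd3 had 207, 203 and 199 CPM against 252, 219 and 199 CPM.

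Among the cytoplasmic proteins, Lsm14b, of a family found in P-bodies, had 67.5, 68.3 and 70.8 CPM in the flox control and 58.8, 54.1 and 50.3 CPM in the homozygous deletion. It fell by 0.36 on the log2 scale (SE 0.062, edgeR adjusted p 0.00117), and the groups did not overlap. Lsm12 had 193, 197 and 191 CPM against 250, 214 and 226 CPM, all higher in the deletion. Lsm1 had 29.1, 28.5 and 30.1 CPM against 32.9, 33.9 and 30.3 CPM and did not pass.

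Markers of other cells moved with the homozygous deletion. All 10 hepatocyte genes measured were lower in it than in the flox control, with a summed level of 11.3 to 31 CPM against 102 to 635 CPM. All 4 B cell genes were also lower (23.6 to 26.3 CPM against 57.9 to 119 CPM), as were 5 of 6 macrophage genes, the remaining one being higher, and 2 of 4 erythroid genes (268 to 327 CPM against 475 to 661 CPM), and none of these was at 0 in every library of either group. Of 10 proliferation genes 3 were higher and 1 lower, and of 6 progenitor genes 1 was higher and 2 lower. With the hepatocyte level of each library as a covariate, 3 members passed, beside 10.3% of all genes, down from 41.0%. That level, a mean over the genes on the log2 scale, was 2.61 to 5.19 in the flox control and -1.17 to 0.907 in the homozygous deletion. The groups did not overlap in it, so this fit cannot separate the hepatocyte level from the deletion. Of the 16 calls only Prpf40b and Snrpb were kept, Prpf8 was added, and those lost included Prpf39, Sf3b1 and all 4 of the U6 ring. The median log2 fold change of the members in that fit was 0.30, and 31 of 36 were positive. The part of the other markers in these differences was not tested, and that of the hepatocyte genes cannot be told apart from the deletion.

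**Figure D3:**
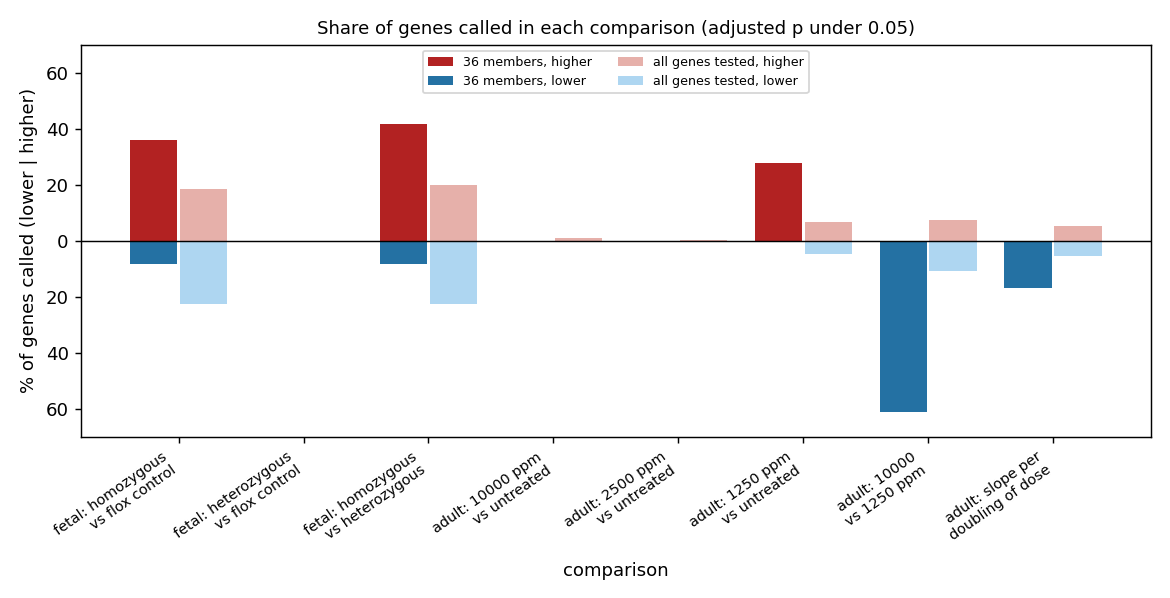
Bars give the percentage of genes called higher (above 0) and lower (below 0) at an adjusted p under 0.05 in each of 8 comparisons on the horizontal axis, in dark colours for the 36 members and in light colours for all genes tested. Members called lower at 10000 against 1250 ppm reach 61.1%, beside 10.6% of all genes.

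Against the heterozygous deletion, the homozygous deletion showed much the same members, although both comparisons use the same 3 homozygous libraries. Of the 36 genes 15 were higher and 3 lower (edgeR, adjusted p under 0.05), beside 42.3% of all genes, 19.8% higher and 22.4% lower, and the median log2 fold change was 0.16 over members and -0.05 over all genes. Prpf39 had 38.8, 45.2 and 44.7 CPM in the heterozygous libraries, and rose by 0.59 ± 0.10 (SE) on the log2 scale. Prpf40b had 13.9, 16.4 and 16.8 CPM there, a log2 fold change of -0.97 ± 0.12 (SE). Lsm8 (66.7, 62.4 and 65 CPM), Snrpb2 (80.3, 74.9 and 74.6 CPM), Snrpa1 (134, 111 and 115 CPM) and Lsm6 (125, 112 and 112 CPM) were all below the homozygous libraries. Their log2 fold changes were 0.42 ± 0.069, 0.42 ± 0.063, 0.39 ± 0.074 and 0.38 ± 0.059 (SE). Lsm14b, at 73.7, 66.7 and 72.8 CPM, and Prpf4b, at 172, 173 and 195 CPM, were higher in the heterozygous libraries than in any homozygous one, by log2 fold changes of -0.41 ± 0.061 and -0.24 ± 0.079 (SE) for the deletion. Snrpf and Sf3a3 were called here and not against the flox control, and the difference between the comparisons was not tested. Of the markers of other cells, 5 of 10 hepatocyte, 4 of 4 B cell and 5 of 6 macrophage genes were lower in the homozygous deletion here too and the sixth macrophage gene was higher. Of 10 proliferation genes 6 were higher and 0 lower, and the part of these markers was not tested.

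With 1 allele deleted no member passed. The count was 0 of 36 in the heterozygous deletion against the flox control by edgeR, beside 0.0316% of all genes, 0.00789% higher and 0.0237% lower. At an unadjusted p under 0.05 in that test it was 0, beside 8.83% of all genes. By DESeq2 it was also 0, beside 1.02%. Log2 fold changes of members ran from -0.18 to 0.08, with a median of -0.04, and 28 of 36 were negative. The smallest unadjusted p values belonged to Snrpa1 and Sf3b3. Snrpa1, a partner of Snrpb2 on U2 snRNA, had 138, 134 and 134 CPM in the flox control, and its difference of -0.16 had a 95% interval from -0.33 to 0. Sf3b3 had 603, 723 and 706 CPM in the flox control and 585, 582 and 619 CPM in the heterozygous deletion, which overlap, with a difference of -0.18 and an interval from -0.37 to 0.01. For Prpf40b the heterozygous libraries lay within the range that the control and Vav1-Cre libraries spanned, except for 1 at 13.9 CPM. None of the 10 hepatocyte markers passed, and their sums, 50 to 122 CPM in the heterozygous deletion and 102 to 635 CPM in the flox control, overlapped.

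The S34F libraries could be set only against 1 Vav1-Cre library in batch B, so that comparison has no replicate check and no test. No member differed from the control at least 1.5-fold in all 4 S34F libraries, beside 4.39% of 11823 genes, 3.13% higher and 1.26% lower. In 7 members every S34F library lay above the control, and in 17 every one lay below it, beside 26.5% and 31.8% of all genes. The largest differences belonged to Prpf40b and Prpf8. Prpf40b had 20.7 CPM in the control and 26.3, 23.9, 26.4 and 26.2 CPM with S34F, a mean log2 difference of 0.30, and those 4 values are the highest of this gene in the series. Prpf8 had 890 CPM in the control and 721, 703, 738 and 761 CPM with S34F, a mean log2 difference of -0.28. The Vav1-Cre library of batch A had 1300 CPM of Prpf8, so that the Vav1-Cre libraries differed from each other by more than the S34F libraries from their control. With 1 such library in each batch, a difference of batch cannot be told from one of library.

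**Figure D4:**
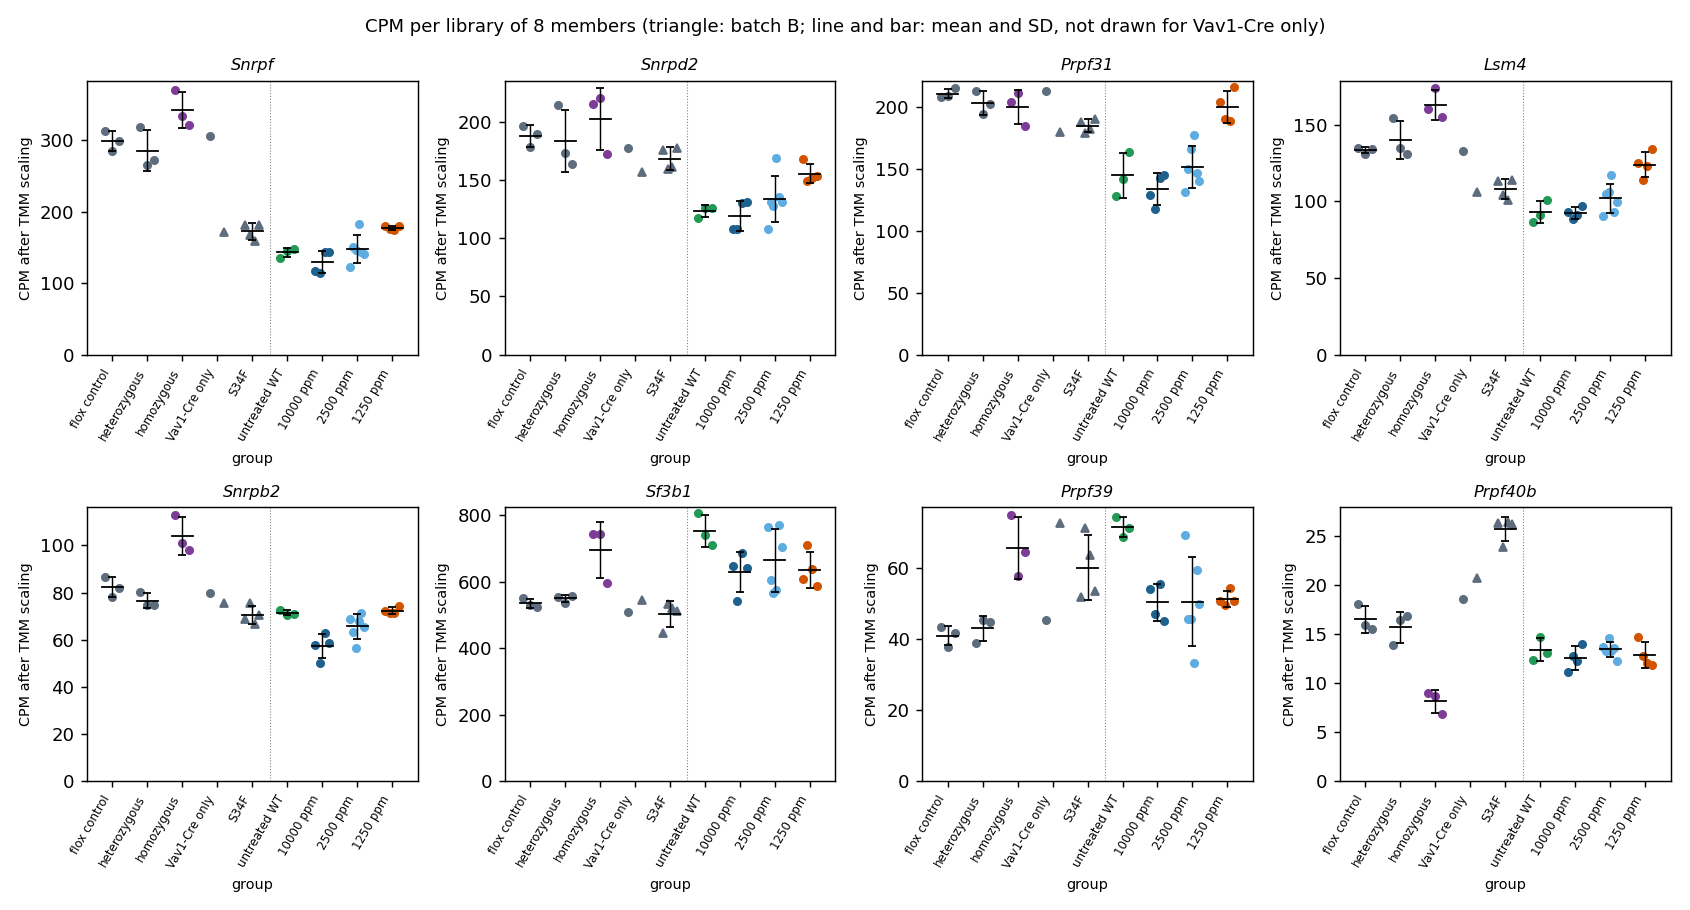
CPM after TMM scaling (vertical axis, from 0) is plotted for each library of the 9 groups (horizontal axis) in 8 panels, 1 for each of 8 members, with triangles for batch B and mean and SD drawn for groups of 3 or more. Prpf31 at 1250 ppm, 189 to 216 CPM, lies above all other adult libraries, and Prpf40b is lowest in the homozygous deletion, 6.81 to 8.95 CPM.

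In the adult dose groups, the core proteins had less mRNA at the highest dose of doxycycline than at the lowest. Of the 36 members 22 were lower and 0 higher at 10000 than at 1250 ppm (61.1%) by the quasi-likelihood test of edgeR (Benjamini-Hochberg adjusted), beside 18.1% of all genes, 10.6% lower and 7.53% higher. The median log2 fold change was -0.32 over members and 0.02 over all genes, and 35 of 36 members were negative, with Lsm14b alone at 0.03. All 5 Sm ring proteins and all 4 tri-snRNP proteins passed, as did 5 of 6 in the U6 ring, 5 of 9 in U2, and 1 each in U1 (Snrpc), the other steps (Prpf19) and the cytoplasmic proteins (Lsm12). Among those that did not pass were Prpf39, Prpf40b, Sf3b1, Sf3b2, Sf3b3, Sf3b6, Lsm8, Lsm11, Lsm1, Lsm14b, Prpf18, Prpf38b and Prpf4b.

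Prpf31, which holds the U4/U6 part of the tri-snRNP together, changed most. It had 129, 118, 143 and 145 CPM at 10000 ppm and 204, 190, 189 and 216 CPM at 1250 ppm. The groups were far apart, and the log2 fold change was -0.59 ± 0.10 (SE), with an edgeR adjusted p of 0.0038 after Benjamini-Hochberg adjustment. At 2500 ppm its lowest, median and highest values were 131, 149 and 177 CPM. Prpf3 had 74.3, 59.3, 71 and 77.1 CPM at 10000 ppm and 90.6, 90.9, 96 and 85.7 CPM at 1250 ppm. Prpf8 had 1120, 989, 1340 and 1380 CPM against 1500, 1500, 1520 and 1480 CPM. Every 10000 ppm value of these 3 genes was below every 1250 ppm value.

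Sm ring genes gave the same separation. Snrpf had 117, 115, 143 and 144 CPM at 10000 ppm and 180, 176, 174 and 180 CPM at 1250 ppm, a log2 fold change of -0.46 ± 0.098 (SE; edgeR adjusted p 0.00707). Snrpd2 had 108, 108, 130 and 131 CPM against 168, 149, 152 and 153 CPM, with -0.39 ± 0.10 (SE; edgeR adjusted p 0.018). Snrpd3 had 114, 106, 135 and 137 CPM against 154, 160, 151 and 160 CPM. In each of these, replicates 1 and 2 at 10000 ppm were lower than replicates 3 and 4, and the 1250 ppm libraries stood close together. At 2500 ppm Snrpf ran from 123 to 183 CPM with a median of 145 CPM, and Snrpd2 from 108 to 169 CPM with a median of 131 CPM, spanning both groups.

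In the U6 ring Lsm7 had 22.9, 20.3, 28.2 and 32.5 CPM at 10000 ppm and 35.4, 36.4, 36.8 and 39.1 CPM at 1250 ppm, a log2 fold change of -0.52 ± 0.14 (SE; edgeR adjusted p 0.0199). Lsm4 had 92.9, 88.4, 91.2 and 97.2 CPM against 125, 114, 123 and 134 CPM, with -0.43 ± 0.081 (SE; edgeR adjusted p 0.00466). Both were apart between the groups, whereas Lsm8, at 59.1, 60.3, 55.4 and 49.2 CPM against 58.8, 59.7, 61.4 and 60.5 CPM, was not. Among the other members named by their level, Prpf19 had 260, 230, 298 and 320 CPM against 365, 338, 355 and 345 CPM, and Lsm12 119, 105, 123 and 125 CPM against 149, 139, 138 and 145 CPM. Sf3b2 had 610, 617, 534 and 551 CPM against 670, 615, 625 and 643 CPM, Prpf18 71.2, 70.6, 69.3 and 68.7 CPM against 77.7, 75.2, 75.9 and 72.1 CPM, and neither passed. Lsm11 had 29.9, 25.5, 32.4 and 32.9 CPM against 37.2, 36.4, 42.1 and 33.3 CPM, and Lsm1 24.4, 22.2, 22.2 and 23.7 CPM against 26.2, 23.1, 27 and 22.8 CPM. Those 2 also did not pass.

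Erythroid markers moved with the same pair of groups, 3 of 4 being higher at 10000 ppm, where their summed level was 725 CPM in replicate 2 and 13.8 to 22 CPM in the other libraries, against 2.85 to 38 CPM at 1250 ppm. Of 10 proliferation genes 3 were lower, and no B cell or macrophage gene passed. The part of these markers was not tested. Without replicate 2 at 10000 ppm, the library with the high erythroid sum, 15 members passed beside 10.3% of all genes, and without replicate 4 at 1250 ppm 13 passed beside 10.5%. A fit of only these 8 libraries called 11 members beside 8.64% of all genes, and one with no filter on low counts 13 beside 5.98%.

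At 1250 ppm several U2 and U6 proteins stood above the untreated wild type. Of the 36 genes 10 were higher and 0 lower (27.8%) by the quasi-likelihood test of edgeR (Benjamini-Hochberg adjusted), beside 11.4% of all genes, 6.76% higher and 4.66% lower, and the median log2 fold change was 0.18 over members and 0.01 over all genes. They were Sf3a1, Sf3a2, Sf3a3 and Sf3b2 of U2, Lsm2 and Lsm4 of the U6 ring, Prpf31 and Prpf6 of the tri-snRNP, Snrpc of U1 and Snrpb of the Sm ring. Prpf31 had 128, 142 and 164 CPM in the untreated libraries, all below the 1250 ppm values given above, with a log2 fold change of 0.48 ± 0.11 (SE; edgeR adjusted p 0.0166). Sf3a2, of the complex that joins U2 to SF3b, had 126, 136 and 157 CPM in the untreated wild type and 200, 174, 193 and 196 CPM at 1250 ppm, with 0.47 ± 0.099 (SE; edgeR adjusted p 0.0141). Lsm4 had 86.8, 90.9 and 101 CPM untreated, with 0.43 ± 0.088 (SE; edgeR adjusted p 0.0121). Snrpc, which steadies the pairing of U1 with the start of the intron, had 72.5, 73.2 and 81.2 CPM untreated and 100, 93.3, 94.5 and 98 CPM at 1250 ppm, with 0.37 ± 0.067 (SE; edgeR adjusted p 0.00899). Sf3a1 had 278, 279 and 298 CPM against 374, 341, 370 and 364 CPM, with 0.36 ± 0.078 (SE; edgeR adjusted p 0.0147). In all 5 genes the untreated libraries lay below every 1250 ppm library. All 4 B cell and 4 of 6 macrophage genes were also higher at 1250 ppm, the B cell sum being 38.4 to 49.6 CPM against 18.5 to 25.7 CPM. The macrophage sum was 138 to 187 CPM against 350 to 451 CPM, so that the sum and the calls had opposite directions, and the part of these markers in the result was not tested. Without untreated replicate 1 or replicate 2, 0 members passed in edgeR, while the median of the members stayed at 0.18 and 0.15 and the share of all genes called fell to 1% and 0.493%. Without 1250 ppm replicates 1, 4 and 5, 5, 6 and 4 members passed, beside 3.43%, 6.04% and 3.47% of all genes. DESeq2 called 17 members (18.9% of all genes), a fit of only these groups 20 (26%) and one with no filter on low counts 5 (2.74%). With a block for the replicate number 1 was called (3.28%), although those numbers were not taken as pairs here.

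The higher doses did not separate members from the untreated wild type. At 10000 ppm 0 of 36 passed by edgeR, beside 1.27% of all genes, 0.952% higher and 0.315% lower. An unadjusted p under 0.05 in the edgeR test belonged to 9 members, beside 22.3% of all genes. DESeq2 called 1 member (Snrpb2), beside 7.92% of all genes. At 2500 ppm 0 passed by edgeR, beside 0.487% of all genes, 0.345% higher and 0.142% lower, and 0 by DESeq2, beside 4.26%. In the edgeR test 3 members had an unadjusted p under 0.05, beside 15.2% of all genes. Snrpb2 had 72.6, 70.7 and 71.1 CPM untreated and 57.8, 50.2, 62.7 and 58.7 CPM at 10000 ppm, values that do not overlap, with a difference of -0.31 and an edgeR adjusted p of 0.0607 after Benjamini-Hochberg adjustment. Prpf39 had 74.3, 68.6 and 71.1 CPM untreated and 53.9, 46.9, 55.5 and 44.9 CPM at 10000 ppm, a difference of -0.50 with an edgeR adjusted p of 0.111. At 2500 ppm it ran from 33.2 to 69 CPM with a median of 47.7 CPM, and at 1250 ppm it had 50.5, 49.4, 54.3 and 50.5 CPM. Prpf39 was thus below the untreated libraries at 10000 and 1250 ppm alike, whereas one library at 2500 ppm reached the untreated range. Without 10000 ppm replicate 3, Snrpb2 passed, and without 2500 ppm replicate 1, Prpf39 did. At 10000 ppm 2 of 4 erythroid and 3 of 4 B cell genes were higher than untreated, and at 2500 ppm 4 of 4 B cell genes were. These comparisons and the one at 1250 ppm share the 3 untreated libraries.

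A slope on the logarithm of the dose over the 14 dosed libraries was negative in 34 of 36 members. It passed in 6, all lower with rising dose, beside 10.7% of all genes, 5.32% lower and 5.39% higher (edgeR, adjusted p under 0.05). Per doubling of the dose Prpf31 changed by -0.17 ± 0.036 (SE; edgeR adjusted p 0.0191), Snrpf by -0.13 ± 0.035 (SE; 0.031), Lsm4 by -0.12 ± 0.029 (SE; 0.0254), Lsm3 by -0.11 ± 0.024 (SE; 0.021) and Snrpb2 by -0.10 ± 0.026 (SE; 0.0302) on the log2 scale, each p being Benjamini-Hochberg adjusted. Sf3a1 was the remaining call. Lsm3 had 69.6, 63, 75 and 70.6 CPM at 10000 ppm, 71.6 to 90.1 CPM with a median of 79.5 CPM at 2500 ppm and 92.2, 90.6, 87.9 and 85.7 CPM at 1250 ppm. Snrpb2 had 56.4 to 71.4 CPM with a median of 66.9 CPM at 2500 ppm and 72.1, 71.4, 71.3 and 74.4 CPM at 1250 ppm. In both genes the 2500 ppm group lay between the others in its median and overlapped at least 1 of them. The slope uses the libraries of the comparison of 10000 with 1250 ppm and is not separate from it. All 4 erythroid genes rose with the dose, and their part was not tested. The count moved with single libraries, and the share of all genes called moved with it. Without 10000 ppm replicates 1, 2, 3 and 4 it was 2, 0, 11 and 19 members, beside 3.99%, 0.666%, 12.9% and 17% of all genes. Without 1250 ppm replicates 1, 3, 4 and 5 it was 0, 1, 2 and 0, beside 2.5%, 3.58%, 3.35% and 2.17%, and without 2500 ppm replicate 1 it was 13, beside 12.8%. DESeq2 called 21 (17.4% of all genes), a slope on the rank of dose 21 (16.1%) and the GC correction 17 (15.9%). A fit with a block for the replicate number called 0 (0.257%), although those numbers were not taken as pairs here.

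The fetal and adult comparisons share no library. Of the 13 members higher in the homozygous deletion than in the flox control, 9 (69.2%) were among the 22 lower at 10000 than at 1250 ppm, of which they make 40.9%. Over all genes 551 of 2350 higher in the deletion (23.4%) were among the 1415 lower at 10000 ppm (38.9% of those). Since 61.1% of all members were lower at 10000 ppm, the share of 69.2% is near that of the members as a whole. The 9 were Snrpb, Snrpc, Snrpa1, Snrpb2, Prpf3, Lsm3, Lsm4, Lsm6 and Lsm12. The other 4 higher in the deletion, Prpf39, Sf3b1, Lsm8 and Prpf18, had log2 fold changes of -0.03, -0.02, -0.11 and -0.11 at 10000 against 1250 ppm and did not pass there.

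Other genes of the pathway were taken from lists of spliceosome, minor spliceosome and snRNP assembly genes. Between the homozygous deletion and the flox control 13 of 39 other spliceosome genes were higher and 4 lower, with a median log2 fold change of 0.11. Smndc1, a relative of the assembly protein Smn1 (0.52 ± 0.062, SE), the helicase Dhx38 (0.45 ± 0.049, SE) and the helicase Dhx15 (0.41 ± 0.056, SE) rose most, and the helicase Dhx35 (-0.34 ± 0.085, SE), the cyclophilin Cwc27 (-0.27 ± 0.071, SE) and Wbp4 (-0.25 ± 0.069, SE) were among the 4 that fell. Of 7 minor spliceosome genes 3 were higher and 1 lower, and of 12 assembly genes 3 were higher and 3 lower. Smn1, which loads the Sm ring onto snRNAs, rose by 0.46 ± 0.065 (SE), Prmt5, which methylates Sm proteins, by 0.31 ± 0.09 (SE), and Gemin8 of the Smn1 complex had -0.36 ± 0.097 (SE). Between 10000 and 1250 ppm 0 of 39 other spliceosome genes were higher and 15 lower, 1 of 7 minor spliceosome genes was lower and 6 of 12 assembly genes were lower. Smn1 had -0.43 ± 0.071 (SE) and Prmt5 -0.55 ± 0.14 (SE) there. At 1250 ppm against the untreated wild type 11 of 39 other spliceosome genes were higher and 0 lower, while 1 of 7 minor spliceosome genes was higher (Snrnp25) and 1 lower (Snrnp48), and 1 of 12 assembly genes, Coil, was higher. The shares of all genes called in these comparisons are those given above.

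**Figure D5:**
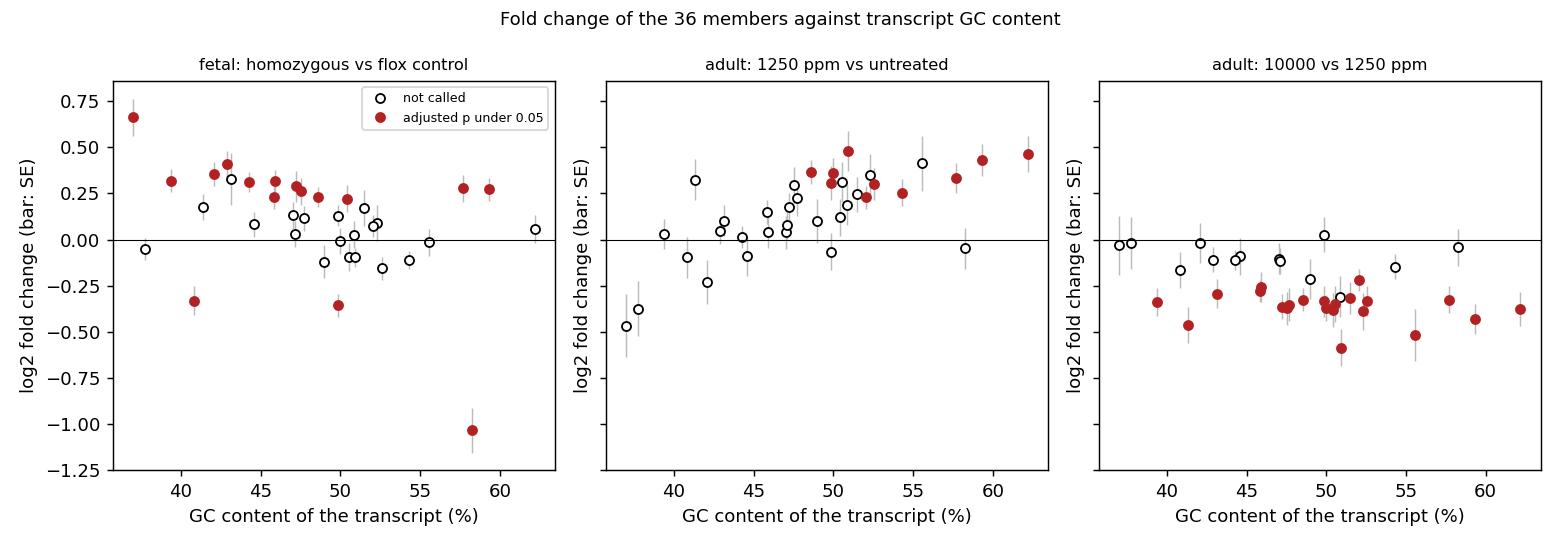
The log2 fold change (vertical axis, bars are SE) of each of the 36 members is plotted against the GC content of its transcript in percent (horizontal axis) in 3 comparisons, with filled points for an adjusted p under 0.05. Members with more GC lie higher in the plot of 1250 ppm against the untreated wild type, and somewhat lower in the plot of 10000 against 1250 ppm.

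Fold changes of members went with the GC content of their transcripts, a property that their choice did not use. Across the 36 genes, which share their libraries and are not independent replicates, the Spearman correlation of GC with log2 fold change was 0.68 at 1250 ppm, 0.80 at 2500 ppm and 0.72 at 10000 ppm, each against the untreated wild type. Those 3 comparisons share the untreated libraries. Over all genes tested the same correlations were 0.38, 0.33 and 0.35. It was -0.43 for 10000 against 1250 ppm, with -0.10 over all genes, and -0.45 for the homozygous deletion relative to the flox control, with -0.09 over all genes. Prpf39, the member lowest against the untreated wild type at each dose, has a transcript of 37% GC, and Sf3a2, among the highest, 62.2%. After a correction of each library for GC content, chosen after seeing the data, 9 members were called at 1250 ppm against untreated, 4 of them among the 10 above, beside 7.38% of all genes, and 23 at 10000 against 1250 ppm, beside 21.6%.

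Fetal controls and the untreated adult wild type differed in tissue, age, genotype and library batch, which cannot be told apart, so their levels are described without a test. In 22 of 36 members every fetal flox control and Vav1-Cre library was above every untreated adult library, and in 4, among them Sf3b1, Sf3b6 and Prpf18, every one was below. Over 12214 genes these numbers were 2886 and 3380. The median log2 difference was 0.41 over members and -0.01 over all genes. Snrpf had 285 to 313 CPM in the flox control and 136 to 148 CPM in the untreated adult wild type, and Sf3b1 had 525 to 551 CPM against 709 to 805 CPM.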

How the data were processed

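Raw counts per gene for 32 RNA-seq libraries were deposited by the authors, who aligned reads with HISAT2 2.1.0 to GRCm38, per the labels' design text. The counting tool, the annotation release and the use of strand are not given in the sources used here. GENCODE M21 gave symbols and gene types for 27690 of 27728 gene identifiers. The snRNP classes of the members came from a chosen gene list and not from that annotation. The counts were tested with edgeR 4.0.16 in R 4.3.3 (filterByExpr, TMM scaling, quasi-likelihood test, Benjamini-Hochberg adjusted p under 0.05), with separate fits for the fetal groups of batch A, the adult groups and, for the slope, the dosed libraries, each over all genes. DESeq2 1.42.0 was an alternative, and limma 3.58.1 was loaded with edgeR. Other alternatives were the scaling, the filter on low counts, the groups fitted, covariates, a replicate block and leaving out each library. The test was checked on simulated data. Class levels are means of log2(CPM + 1).

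The members and all gene lists were chosen with earlier results of these data known. Genes named are up to 5 of the largest called rises and falls in each comparison, the 2 with the smallest p where none was called, the 2 largest S34F differences and the highest and lowest CPM per kilobase of each class; further members and pathway genes were chosen for mention after their values were seen. Replicate numbers, which the labels do not explain, were taken as pairs only where all of at least 3 same-numbered pairs had deviations correlated over 0.1. That held for 2500 ppm against untreated (0.292, 0.218 and 0.167), where the replicate block also called 0 members, and for no other comparison. Promoter sequences are RefSeq's on GRCm38.p6. U2af1 was not analysed here, and 1 member that counts include is not reported by name.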

Additional observations from a re-analysis of the deposited data

Results flagged for a closer look

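Of 148 sets of 4 or 6 libraries checked for a library far from the others, 5 had one, and chance gives about 1 in 20. Lsm14b had 36.3 CPM in 1250 ppm replicate 5, against 47.1 to 48.8 CPM in the other libraries of that dose. Lsm7 had 40.4 CPM in 2500 ppm replicate 4, against 25.9 to 29.7 CPM in the others. The mean log2(CPM + 1) of the U6 LSm ring, which includes Lsm7, was 6.273 in the same library and 6.035 to 6.115 in the others. Prpf40b had 23.9 CPM in S34F replicate 2, against 26.2 to 26.4 CPM in the others. Sf3b3 had 476 CPM in S34F replicate 4, against 460 to 462 CPM in the others.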

How the results depend on the processing

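Members called, beside the percentage of all genes called, changed as follows. For homozygous deletion against flox control (16 members), a hepatocyte covariate gave 3 (10.3%), of which 2 were among the 16. For 10000 ppm against untreated (0), DESeq2 gave 1 (7.92%). For 1250 ppm against untreated (10), DESeq2 gave 17 (18.9%), no filter 5 (2.74%), the replicate block 1 (3.28%), only the compared groups 20 (26%) and GC correction with replicate block 1 (2.62%). For 10000 against 1250 ppm (22), no filter gave 13 (5.98%) and only the compared groups 11 (8.64%). For the slope on dose (6), DESeq2 gave 21 (17.4%), the replicate block 0 (0.257%), the rank of dose 21 (16.1%), GC correction 17 (15.9%) and that with the replicate block 0 (1.19%). Same-numbered libraries correlated from -0.253 to 0.251 in 7 fetal and from -0.365 to 0.694 in 19 adult pairs, and each was closest to its own number in 5 of 14 and 13 of 38 cases. The replicate block gave 11 (31.9%) and 13 (34.1%) in the homozygous comparisons and 18 (8.88%) between 10000 and 1250 ppm, within 1.5 times of 16, 18 and 22. Leaving out 1 library at a time gave 13 to 19 (30.5% to 42.7%) for the homozygous deletion against the flox control. Against the heterozygous deletion it gave 13 to 21 (31% to 39.4%), and between 10000 and 1250 ppm 13 to 21 (8.41% to 21.2%). Against untreated it gave 0 to 9 (0.493% to 10.9%) at 1250 ppm. At 2500 ppm it gave 0 to 1 (0% to 1.23%) and at 10000 ppm 0 to 1 (0% to 6.14%). For the slope it gave 0 to 19 (0.666% to 17%). Sf3b3 in the heterozygous deletion reversed to 0.016 on the log2 scale with the hepatocyte covariate. The causes of these changes were not tested. A covariate of Y-linked reads gave 8 (10.2%) at 1250 ppm against untreated. Among adult libraries only untreated replicate 3 had no such reads, so this covariate marks 1 library and cannot adjust for sex. Leaving that library out gave 7 (8.91%). The covariate could not be fitted for the slope, as every dosed library had such reads, and was not fitted for the fetal comparisons. GC settings were chosen after seeing the data. Total counts limit low members such as Prpf40b most.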
